A study of Bos taurus with 2 samples.

Results

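Cytokines, chemokines and their receptors were examined in muzzle tissue from a light-muzzle and a dark-muzzle Korean cow. Members were all probes whose RefSeq symbol starts with CCL, CCR, CXCL, CXCR, IL and a digit, TNFSF or TNFRSF, or is TNF, LTA, LTB, CSF1, CSF1R, CSF2, CSF3, IFNG, LIF, CX3CL1 or CX3CR1. The rule found 101 of the 9647 genes named on the arrays, by 182 of the 43639 probes. Of the 101, 61 encode ligands or secreted antagonists and 40 encode receptors. A further 68 bovine symbols meet the rule but matched no probe by accession and were not analysed here.

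The study asked which genes differ with the pigment of the bovine muzzle, and hybridized 1 array per muzzle color. Both animals were female HanWoo, the native Korean cattle breed, aged 30 months, and the tissue was taken from the front of the nose. The light-muzzle cow was the one labelled yellow and the dark-muzzle cow the one labelled black, and neither had received a treatment that the labels give. Each was chosen as a representative of its color, so animal, muzzle color and piece of tissue cannot be told apart. With 1 array per group there was no replicate check, and no p-value or spread between cows is given. All ratios are limited in precision by having 2 arrays.

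Cytokines are small secreted proteins through which immune cells, keratinocytes and other cells signal to each other. Chemokines are the cytokines that direct cell migration, through G protein-coupled receptors. Most interleukins, colony stimulating factors and TNF family ligands instead act through receptors coupled to JAK and STAT proteins or to NF-kB. In skin and mucosa, keratinocytes and gland cells make many of these proteins themselves, several families include secreted antagonists or decoy receptors, and leukocytes carry most of the chemokine receptors.

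A level here is the log2 of the background-subtracted probe intensity minus the 75th percentile of the array, which was an intensity of 1144 on the light-muzzle array and 1137 on the dark-muzzle array. The ratio is taken as dark muzzle over light muzzle on the log2 scale, so a ratio of 1 means 2-fold more signal in the dark muzzle. Its error (±) is the spot error that the scanner software gives, and covers the spot alone. For the measured member probes this error lay between 0.20 and 0.41 with a median of 0.21, so for many it was close to its lowest value. Levels of different probes cannot be set against each other, because probes differ in how strongly they hybridize. The log2 summed level of a list adds its measured genes on the linear scale, so its brightest genes set most of it. It is therefore no measure of the amount of a cell type. In a piece of tissue, fewer cells of a type and less RNA per cell cannot be told apart. On the 2 arrays, 78.8% and 81.9% of the spots were well above background, light-muzzle first.

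Many of the members were dim. Of the 182 probes, 119 (65.4%) were well above background in both cows, against 76.7% of all probes and 85.2% of those with a RefSeq symbol. Another 16 (8.79%) were above it in the dark-muzzle cow alone and 3 (1.65%) in the light-muzzle cow alone, against 5.18% and 2.11% of all probes. The remaining 44 (24.2%) were above background in neither cow, and have no ratio. This share was 16.1% of all probes and 9.47% of those with a RefSeq symbol. Probes for receptors were above background in both cows in 60 of 77 cases (77.9%), and probes for ligands in 59 of 105 (56.2%). By gene, 70 of the 101 had a probe measured in both cows, 7 had only a lower bound of the difference, and 24 were above background in neither cow. Those 24 included the helper T-cell cytokines IFNG, IL2, IL3, IL4, IL5, IL13, IL17A, IL21 and IL22. They also included both subunits of IL12 (IL12A and IL12B), IL15, IL27, CSF2, the chemokines CCL11, CCL20 and CXCL2, and the B-cell survival factor TNFSF13B. The receptors among them were CXCR1, CXCR3, IL13RA2, IL17RB, IL23R and TNFRSF9. At this sensitivity no difference between the cows could be detected for these 24 genes.

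Among the 138 member probes with a ratio or a bound, 17 (12.3%) were higher in the dark muzzle by 2-fold or more, against 9.76% of all 36630 such probes on the arrays. They belonged to 15 genes, and 5 of the 17 were lower bounds. Another 13 (9.42%) were at least 2-fold lower, against 7.17% of all probes, and belonged to 9 genes. In either direction the background was 16.9%. Members are drawn from probes with a RefSeq symbol, of which 10.5% were at least 2-fold higher and 6.34% at least 2-fold lower. The median ratio of the 119 measured member probes was 0.12, with a range from -3.85 to 2.09, and that of all measured probes was 0.0038. For measured probes with a RefSeq symbol it was 0.055. The middle 50% of the member ratios spanned 0.87 on the log2 scale, against 0.74 for all probes. Of the 119, 58 differed from 0 by more than 2 spot errors, 35 of them higher and 23 lower in the dark-muzzle cow. These shares of 48.7%, 29.4% and 19.3% compare with 43.1%, 22.5% and 20.6% of all probes. Among probes with a RefSeq symbol they were 44.5%, 26.2% and 18.3%. With quantile normalization the member median was 0.010 and with loess normalization 0.036, so the small positive median depended on the scaling. In the ligand probes 10 were at least 2-fold higher and 8 at least 2-fold lower, and in the receptor probes 7 and 5.

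**Figure D1:**
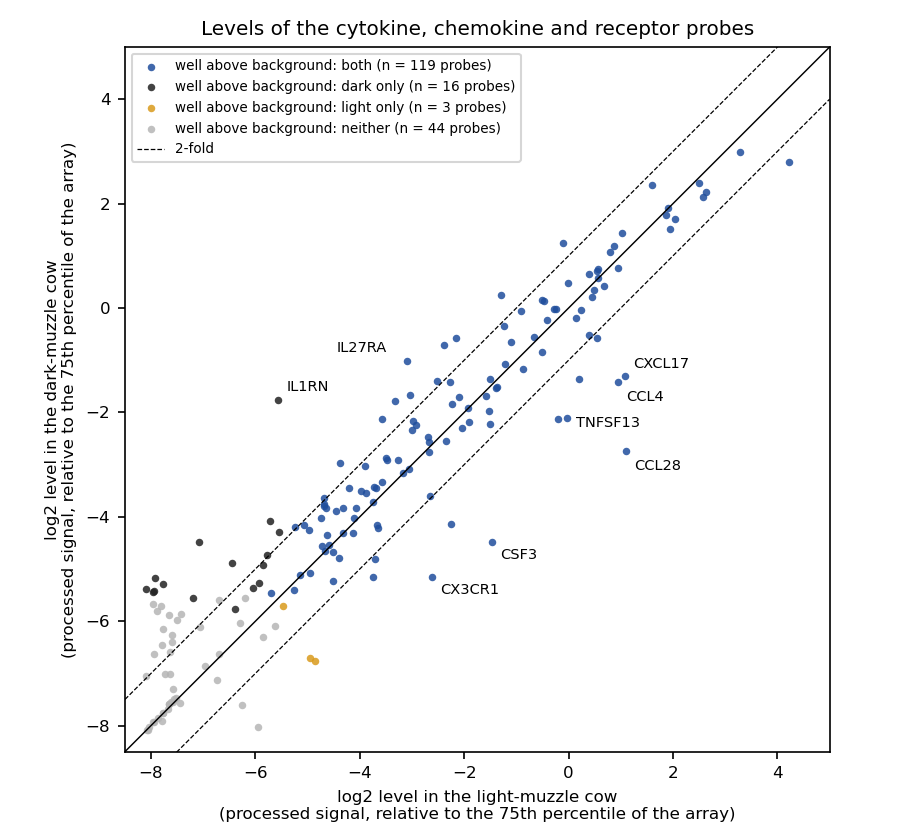
Log2 level of each of the 182 member probes in the light-muzzle cow (x axis) and the dark-muzzle cow (y axis), colored by whether the probe was well above background in both cows, in 1 or in neither. The solid line marks equal levels and the dashed lines 2-fold, and CCL28 and CSF3 lie furthest below the lines while a probe of IL1RN lies furthest above.

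The chemokine ligands held the ratio furthest from 0 among the member probes measured in both cows. They had 46 probes for 26 genes, of which 40 had a ratio, and 5 of these were at least 2-fold higher and 5 lower in the dark muzzle by 2-fold or more. Over the 34 probes measured in both cows the median ratio was 0.17 and the range was -3.85 to 1.58. The median lay between 0.15 and 0.20 under every normalization and background setting tried.

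CCL28, a chemokine that epithelial and gland cells secrete at mucosal surfaces and that attracts IgA-producing plasma cells, was 14.4-fold lower in the dark-muzzle cow. Its only probe was at 1.10 in the light muzzle and -2.75 in the dark muzzle, a ratio of -3.85 ± 0.21. In processed intensity this was 2452 against 169.4. CXCL17, another chemokine of mucosal epithelium, was lower on both of its probes. The brighter probe was at 1.08 in the light muzzle and -1.31 in the dark muzzle (ratio -2.39 ± 0.20, 5.24-fold). The dimmer probe was at -2.26 and -4.13 (ratio -1.87 ± 0.23, 3.66-fold), and its difference shrank to 2.22-fold with normexp. Normexp is a background correction, run here with an added offset of 50 that pulls dim values together.

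Gland markers differed in the same direction as CCL28 and CXCL17. Of 5 measured serous gland genes, the dark muzzle was lower by 2-fold or more for 3: PIP (ratio -4.89), PIGR, the transporter of IgA across epithelium (-3.29), and CA6 (-2.50). LPO (0.57) and LYZ (0.40) were not. The log2 summed level of the 5 was 7.77 in the light muzzle and 3.98 in the dark muzzle, where PIP alone was at 7.39 and 2.50. JCHAIN, the joining chain of IgA and IgM in plasma cells, was at 5.26 and 2.51 (ratio -2.75), and MZB1, another plasma cell gene, had a ratio of -1.31. The part of these cells in the result was not tested.

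The inflammatory CC chemokines CCL3 and CCL4, which attract macrophages and T cells, gave different values on different probes. CCL4 had a bright probe at 0.94 in the light muzzle and -1.42 in the dark muzzle, a ratio of -2.36 ± 0.20 or 5.14-fold. Its dim probe was at -4.52 and -4.68, a ratio of -0.16 ± 0.30. The 2 probes therefore differed by far more than their spot errors. CCL3 had a probe at -3.04 and -1.66 (ratio 1.39 ± 0.21, 2.61-fold higher in the dark-muzzle cow), whereas its brighter probe was at -1.58 and -1.68 (-0.095 ± 0.21). Binding of probes to close paralogs was not tested, as probe sequences were not used here.

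CXCL9, CXCL10 and CXCL11 are the chemokines induced by interferon-gamma that attract T cells through CXCR3. CXCL10 was at -2.16 in the light muzzle and -0.58 in the dark muzzle on its brightest probe (ratio 1.58 ± 0.21, 2.99-fold). A second probe gave -4.39 and -2.97 (1.42 ± 0.24, 2.67-fold), and the third, above background in the dark-muzzle cow alone, was at least 1.86-fold higher. All 3 CXCL10 probes were thus higher in the dark-muzzle cow, although with normexp the second was at 0.88, short of 2-fold. CXCL9 was at -3.91 and -3.02 (0.89 ± 0.24), and CXCL11 had only a bound of 0.019. Neither their inducer IFNG nor their receptor CXCR3 was above background in either cow. Both IFNG probes lay at or under -6.26 on both arrays.

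The median ratio of the 12 T and NK cell marker genes, all measured, was 0.0071, between -0.82 (GNLY) and 0.68 (PRF1). With the measured probes of a gene averaged, none was past 2-fold. On single probes, 1 of PRF1 was at least 2-fold higher and 1 of CD4 at least 2-fold lower. The log2 summed level of the 12 was 5.08 in the light muzzle and 4.76 in the dark muzzle, set mostly by CD4 (4.57 and 4.17). CD4 was at -0.40, while CD3G and CD8A were at 0.67 and 0.65. The part of these cells in the CXCL10 result was not tested.

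CCL14, a constitutive plasma chemokine that acts on monocytes, was at -1.29 in the light muzzle and 0.25 in the dark muzzle, a ratio of 1.54 ± 0.20 or 2.90-fold. CXCL5, a neutrophil attractant, was at -3.75 and -5.16, a ratio of -1.41 ± 0.35, and with normexp it was at -0.47 and no longer 2-fold. CXCL8 (interleukin-8), a strong neutrophil attractant, showed no single value. Its brightest probe was at -4.10 and -4.02, a ratio of 0.084 ± 0.24. A second probe, above background in the dark-muzzle cow alone, was at least 3.13-fold higher there, or 1.67-fold with normexp, and the third was above background in neither cow.

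Several other chemokine ligands were close to equal in the 2 cows. CXCL14, which keratinocytes make constitutively, was at 3.28 in the light muzzle and 2.99 in the dark muzzle (-0.29 ± 0.20). CXCL16, the membrane-bound ligand of CXCR6, had probes at 1.90 and 1.92 (0.024 ± 0.20) and at 0.54 and 0.70 (0.17 ± 0.20). CCL2, the monocyte attractant, had ratios of -0.29 ± 0.20 and -0.022 ± 0.22. Each of these differences was under 2 spot errors. The 4 probes of CXCL12, which retains CXCR4-bearing cells in tissue, were all above 0, with ratios from 0.19 to 0.66. The lymphoid tissue chemokines CCL19 (0.66 ± 0.22) and CCL21 (0.21 and 0.27) were also above 0. The probes of CCL5, CCL8, CCL24 and CXCL3 had ratios between -0.27 and 0.30.

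Chemokine receptors had 22 probes for 12 genes, and 15 probes with a ratio. Of these, 4 (26.7%) were higher in the dark muzzle by 2-fold or more and 2 (13.3%) at least 2-fold lower. Among all probes with a ratio the shares were 9.76% and 7.17%. The median of the 12 probes measured in both cows was 0.60, and between 0.32 and 0.60 under the other settings.

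CX3CR1, the fractalkine receptor of monocytes, tissue macrophages and cytotoxic lymphocytes, was lower in the dark-muzzle cow on both probes. The first was at -2.62 in the light muzzle and -5.16 in the dark muzzle, a ratio of -2.55 ± 0.36 or 5.84-fold. The second was at -3.71 and -4.81, a ratio of -1.10 ± 0.31 or 2.14-fold. Both probes were near background in the dark-muzzle cow, and with normexp the differences were 2.26-fold and 1.33-fold. The 9 measured genes of monocytes, macrophages and dendritic cells had a median ratio of -0.15. None was past 2-fold by gene mean, though 1 CYBB probe was at least 2-fold lower. Their log2 summed level was 1.03 in the light muzzle and 0.90 in the dark muzzle.

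CXCR4, the receptor of CXCL12, was higher in the dark-muzzle cow on both probes, at -3.58 and -2.13 (1.45 ± 0.21, 2.73-fold) and at -2.27 and -1.42 (0.85 ± 0.21). CCR7, through which T cells and dendritic cells follow CCL19 and CCL21 to lymph nodes, had ratios of 1.04 ± 0.25 and 1.04 ± 0.30, just past 2-fold. The other CCR7 probe was above background in neither cow. CCR4, a receptor of skin-homing T cells, had a bound of 1.05 on 1 probe, a bound of 0.60 on another and a measured ratio of 0.73 ± 0.27 on the brightest. The CCR4 and CCR7 values past 2-fold did not hold under quantile, loess or normexp processing, where they lay between 0.40 and 0.94. CCR1 was at 0.76 ± 0.23 on 1 probe, with the other above background in neither cow, and CXCR2 was at 0.47 ± 0.26. CXCR6, the receptor of CXCL16, was near equal at -2.35 and -2.55 (-0.20 ± 0.21).

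Chemokine and receptor pairs with values for both sides did not all differ alike. CXCL12 and CXCR4 were both above 0, as were CCL19, CCL21 and CCR7. CCL25 (0.42 and 0.49) and its receptor CCR9 (0.29 ± 0.28) were above 0 as well, and CXCL16 and CXCR6 were both within 1 spot error of 0. The other 2 CCR9 probes were above background in neither cow. CCL22, a ligand of CCR4, was above background in the dark-muzzle cow alone on both probes, with bounds of 0.85 and 0.49. For CXCL13 and its receptor CXCR5 the values were a bound of -0.25, in the light-muzzle cow alone, and a ratio of 0.23 ± 0.41. The other CXCL13 probe was above background in neither cow.

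**Figure D2:**
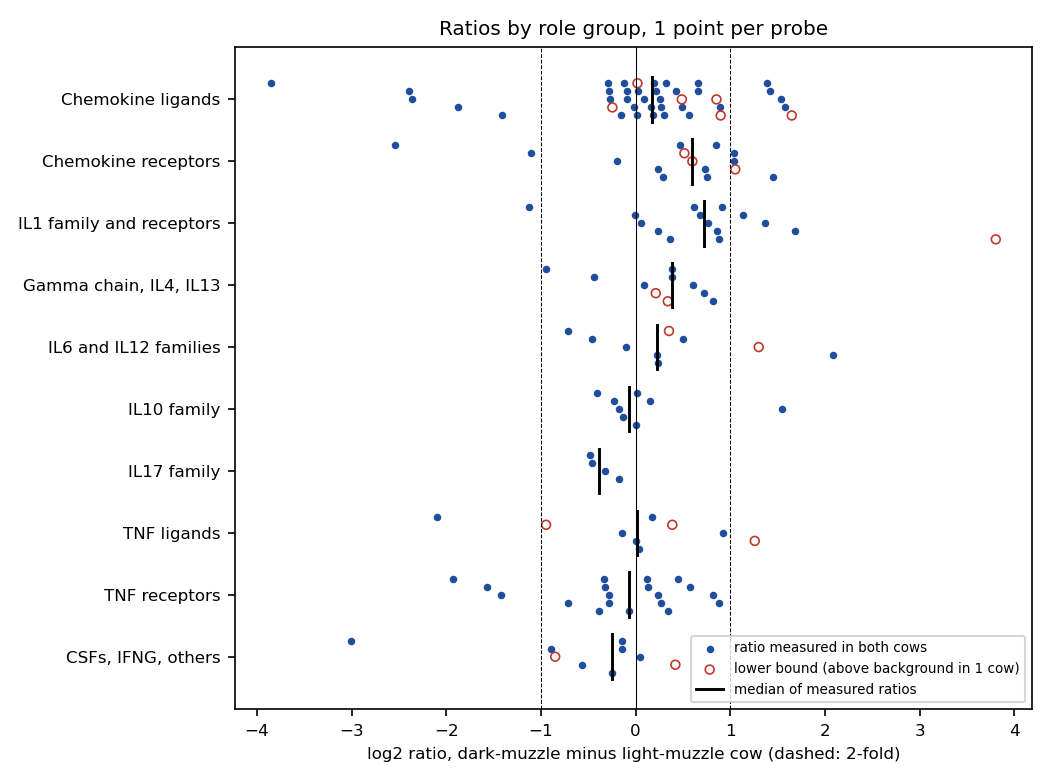
Log2 ratio of each member probe with a value, dark-muzzle minus light-muzzle cow, by role group. Filled points were measured in both cows, open points are lower bounds, black bars are medians of the measured probes, and dashed lines mark 2-fold. The medians of the interleukin-1 family (0.72) and the chemokine receptors (0.60) lie furthest above 0, and that of the IL17 family (-0.39) furthest below.

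The interleukin-1 family comprises the alarm cytokines of epithelium and macrophages, their receptors and a set of natural antagonists. It had 16 probes for 8 genes, 15 with a ratio. Of these, 4 (26.7%) were higher in the dark muzzle by 2-fold or more and 1 (6.67%) at least 2-fold lower. Among all probes with a ratio the shares were 9.76% and 7.17%. Of the 14 probes measured in both cows, 12 (85.7%) were above 0, against 50.3% of all probes. By more than 2 spot errors, 9 (64.3%) were higher, against 22.5% of all probes. Among probes with a RefSeq symbol these shares were 54.3% and 26.2%. The median ratio was 0.72, and between 0.49 and 0.72 under the other settings.

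IL1R2, IL36RN and IL1RN encode inhibitors of interleukin-1 or interleukin-36, and were grouped after their values were seen. IL1R2, a decoy receptor that binds interleukin-1 without signaling, was at -2.40 in the light muzzle and -0.71 in the dark muzzle, a ratio of 1.68 ± 0.21 or 3.21-fold. IL36RN, the antagonist of the interleukin-36 receptor made by keratinocytes, was at -0.11 and 1.25, a ratio of 1.36 ± 0.20 or 2.57-fold. IL1RN, the receptor antagonist of interleukin-1, was at 1.61 and 2.36 (0.76 ± 0.20) on its brightest probe and at -0.92 and -0.056 (0.86 ± 0.20) on the second. The third IL1RN probe was not clear of background in the light muzzle, where it was at -5.56, and was at -1.76 in the dark-muzzle cow. It was at least 14.0-fold higher there, or 3.81-fold with normexp, so the IL1RN probes differed widely in size but not in direction.

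The agonists were mixed. IL1A, which keratinocytes store and release on damage, was at -2.53 in the light muzzle and -1.40 in the dark muzzle, a ratio of 1.13 ± 0.21, and 0.92 with normexp. Its other probe was above background in neither cow. IL1B, the agonist secreted by macrophages, was at 0.57 in both cows on its brightest probe (-0.0024 ± 0.20), and its 3 dim probes gave 0.059 ± 0.29, 0.24 ± 0.23 and 0.91 ± 0.34. IL33, an alarm cytokine of epithelial and endothelial nuclei, had ratios of 0.62 ± 0.22 and 0.88 ± 0.20. IL1RAP, the shared accessory chain of these receptors, had ratios of 0.68 ± 0.21 and 0.36 ± 0.22. IL18 was the only gene of the family with a mean ratio below 0. It was at 0.55 in the light muzzle and -0.58 in the dark muzzle (-1.13 ± 0.20, 2.19-fold lower).

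Several markers differed alongside the interleukin-1 family. Among 3 measured keratinocyte genes, the basal keratins KRT5 (-0.52) and KRT14 (-0.41) were below 0, and KRT10, of the suprabasal layers, was higher (1.57). The log2 summed level of the 3 was 8.59 in the light muzzle and 9.12 in the dark muzzle. Among neutrophil genes, S100A9 was at 1.34, S100A8 at 0.84 and S100A12 at 0.29, all of which keratinocytes make too, while ELANE was at -0.40 and MPO had a bound of 1.60. The log2 summed level of the 4 measured neutrophil genes was 9.22 and 9.87. The part of these cells in the result was not tested.

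The cytokines of the common gamma chain with IL4, IL13 and their receptors had 19 probes for 10 genes, of which 9 probes were above background in neither cow. None of the 10 with a ratio was past 2-fold, against 16.9% of all probes. The median of the 8 measured in both cows was 0.38. IL2RG, the common gamma chain itself, was at 1.95 in the light muzzle and 1.51 in the dark muzzle (-0.44 ± 0.20). IL2RA, the high-affinity chain of the IL2 receptor on activated and regulatory T cells, had ratios of 0.38 ± 0.21 and 0.82 ± 0.21. IL4R, the receptor chain shared by IL4 and IL13, had 5 measured probes. Its ratios were 0.61, 0.092, 0.39, -0.95 and 0.72 from the brightest to the dimmest in the light-muzzle cow, so 4 were above 0 and 1 below. IL7 had only a bound, of 0.34.

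The IL6 and IL12 families, with LIF and their receptors, had 15 probes for 10 genes and 9 probes with a ratio. Of the 9, 2 (22.2%) were at least 2-fold higher, against 9.76% of all probes, and none was at least 2-fold lower, against 7.17%. The median of the 7 measured probes was 0.23. IL27RA, the receptor of IL27 on T cells, was at -3.09 in the light muzzle and -1.01 in the dark muzzle on 1 probe, a ratio of 2.09 ± 0.21 or 4.25-fold. Its far brighter probe was at 2.58 and 2.12, a ratio of -0.46 ± 0.20. The 2 IL27RA probes thus pointed in opposite directions. LIF, a cytokine of stem cells and injured tissue, had a bound of 2.46-fold, higher in the dark-muzzle cow, on 1 probe and 1.71-fold with normexp, and its other probe was above background in neither cow. IL6 itself, the central cytokine of the acute-phase response, was at -4.51 and -5.23 (-0.72 ± 0.34) on 1 dim probe and above background in neither cow on the other. IL6R had ratios of 0.50 ± 0.20 and 0.24 ± 0.22. IL11RA, the receptor of IL11, was near equal at 2.49 and 2.39 (-0.10 ± 0.20) on a probe with 3 spots whose ratios had an SD of 0.027, and at 0.23 ± 0.21 on the other. IL12RB2, a chain of the IL12 receptor, had only a bound, of 0.35.

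The IL10 family and its receptors had 11 probes for 5 genes. Of the 8 with a ratio, 1 (12.5%) was at least 2-fold higher, against 9.76% of all probes. The family's median was -0.065. IL22RA1, through which IL22 acts on epithelium, was at -3.33 in the light muzzle and -1.78 in the dark muzzle on 1 probe (1.55 ± 0.21, 2.93-fold) and at -3.17 in both cows on the other (0.0056 ± 0.23). IL10, the main anti-inflammatory cytokine, was at -1.37 and -1.51 (-0.14 ± 0.21) on 1 probe and above background in neither cow on the other. IL10RB, the receptor chain shared across the family, had 3 probes with ratios of -0.18, -0.23 and 0.16, each ± 0.20. IL20RB, the keratinocyte receptor chain for IL19, IL20 and IL24, was at 2.63 and 2.22 (-0.41 ± 0.20) and at -1.94 and -1.92 (0.018 ± 0.21). IL22 itself was above background in neither cow.

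In the IL17 family, which acts on epithelium against bacteria and fungi, IL17A and IL17RB were above background in neither cow. IL17RC, a chain of the IL17A receptor, had 4 probes with ratios of -0.48 ± 0.24, -0.46 ± 0.21, -0.32 ± 0.20 and -0.18 ± 0.25. All 4 were below 0 and none was past 2-fold. The median was -0.39, between -0.41 and -0.26 under the other settings.

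TNF superfamily ligands had 12 probes for 7 genes, and 9 with a ratio, 1 of them at least 2-fold higher and 1 at least 2-fold lower. Both shares were 11.1%, against 9.76% higher and 7.17% lower among all probes with a ratio. The median of these ligands, 0.019, changed sign between settings, from -0.22 to 0.11. TNFSF13 (APRIL), a survival factor of plasma cells, was at -0.022 in the light muzzle and -2.11 in the dark muzzle, a ratio of -2.09 ± 0.21 or 4.27-fold lower. JCHAIN and MZB1, given with CCL28, were lower in the same cow. Of the same marker list, MS4A1 was at 0.17, and CD79A was at -0.39 with another probe at least 2-fold higher. The related factor TNFSF13B (BAFF) was above background in neither cow. TNFSF8, the ligand of CD30 on activated lymphocytes, had a measured ratio of 0.92 ± 0.26 and bounds of 1.26 (2.39-fold, and 1.36-fold with normexp) and 0.39. TNF, the founding member, was dim and equal, at -4.66 in both cows (0.0012 ± 0.29), and its second probe was above background in neither. LTA was at 0.037 ± 0.33 and TNFSF14 (LIGHT), a ligand of activated T cells, at -4.73 and -4.55 (0.17 ± 0.28). TNFSF18 had a ratio of -0.15 ± 0.40 and, in the light-muzzle cow alone, a bound of -0.95.

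TNF receptors had 20 probes for 11 genes, of which 19 were measured in both cows, with a median of -0.074. The 3 at least 2-fold lower probes (15.8%, against 7.17% of all probes) were all of TNFRSF21 (death receptor 6), a receptor with a death domain. They were at 4.22 in the light muzzle and 2.80 in the dark muzzle (-1.42 ± 0.20), at 0.20 and -1.37 (-1.57 ± 0.21), and at -0.21 and -2.13 (-1.92 ± 0.21). The sizes were 2.67-fold, 2.96-fold and 3.79-fold, so the 3 probes gave alike values over a wide range of brightness. TNFRSF1A, the main receptor of TNF on most cells, was at 2.04 and 1.71 (-0.33 ± 0.20), and TNFRSF1B, its receptor on leukocytes and endothelium, had ratios of 0.27 ± 0.20 and 0.12 ± 0.21. TNFRSF11B (osteoprotegerin), a decoy receptor, was above 0 on both probes (0.82 ± 0.27 and 0.88 ± 0.26), and TNFRSF19 was below 0 (-0.72 ± 0.21). The 4 probes of TNFRSF10D had ratios from -0.39 to -0.074. TNFRSF4 (OX40) and TNFRSF18 (GITR), which costimulate T cells, were at 0.44 ± 0.20 and 0.57 ± 0.29. The probes of TNFRSF25 and TNFRSF6B had ratios between -0.28 and 0.34.

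The colony stimulating factors, IFNG and other interleukins had 15 probes for 9 genes and 9 with a ratio. CSF3 (G-CSF), which drives the production of neutrophils, came next after CCL28 in distance from 0 among the member probes measured in both cows. It was at -1.47 in the light muzzle and -4.48 in the dark muzzle, a ratio of -3.01 ± 0.26 or 8.06-fold lower, and 3.80-fold with normexp. Its only probe was close to background in the dark-muzzle cow, at an intensity of 50.9 against 412.6. CSF1, the growth factor of macrophages, was at -3.75 and -3.71 (0.044 ± 0.23). Its other probe had a bound of 0.42, in the dark-muzzle cow alone. IL34, the other ligand of CSF1R and the one keratinocytes make, was at 0.39 and -0.51 (-0.90 ± 0.20) and at -1.39 and -1.53 (-0.14 ± 0.21). CSF1R, the receptor of both, was at 0.68 and 0.43 (-0.25 ± 0.20) on 1 probe and above background in neither cow on the other. IL16, a T-cell attractant, had ratios of -0.14 ± 0.20 and -0.57 ± 0.24 and a bound of -0.85 in the light-muzzle cow alone. The group's median was -0.25, and apart from CSF1 all its measured probes were below 0.

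**Figure D3:**
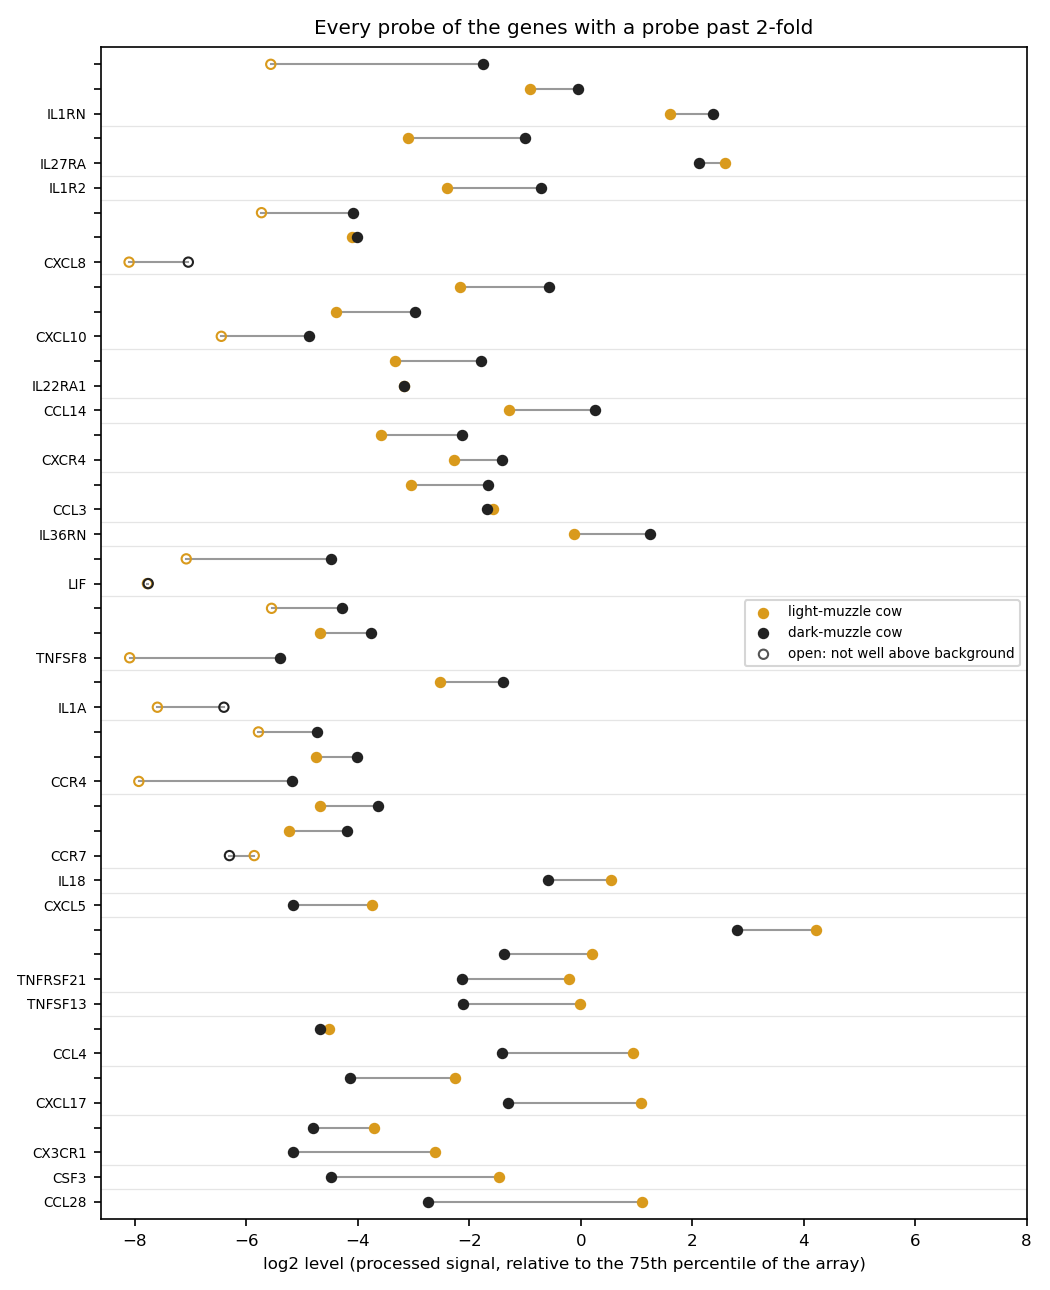
Log2 level of every probe of the 24 genes with a probe past 2-fold, in the light-muzzle cow (orange) and the dark-muzzle cow (black), with 1 line per probe. Open circles were not well above background. TNFRSF21, CXCL17 and CX3CR1 are lower in the dark-muzzle cow on all their probes, by unequal sizes for CX3CR1, whereas CCL3, CCL4, IL27RA and IL22RA1 each have a probe that hardly differs or points the other way.

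The 24 genes with a probe past 2-fold rested on unequal support. Of the 30 probes past 2-fold, 20 were past it under each setting that gave them a value, 9 of them higher and 11 lower in the dark-muzzle cow. Several of those settings hardly differ from the main scale. Averaged over the probes measured in both cows, 7 of the 70 measured genes (10.0%) were at least 2-fold higher and 9 (12.9%) at least 2-fold lower. Over all 8508 genes measured with a RefSeq symbol these shares were 9.12% and 6.10%, and the median ratio was 0.055, against 0.15 for the member genes. Of the 35 member genes with more than 1 measured probe, 25 had all of them on the same side of 0. The median range among the probes of a gene was 0.38 on the log2 scale, against 0.30 for 5363 genes across the arrays. In 6 of the 35 (17.1%) the range was 1 or more, against 10.0% of all such genes. These 6 were IL27RA, CCL4, IL4R, IL22RA1, CCL3 and CX3CR1. No member gene had probes past 2-fold in opposite directions. For scale, 36 probes with 4 measured spots had a median SD of 0.049 between spots. The median SD between the probes of a gene was 0.22 for the members and 0.17 across the arrays. Probes of a gene thus differed more than spots of a probe.

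**Figure D4:**
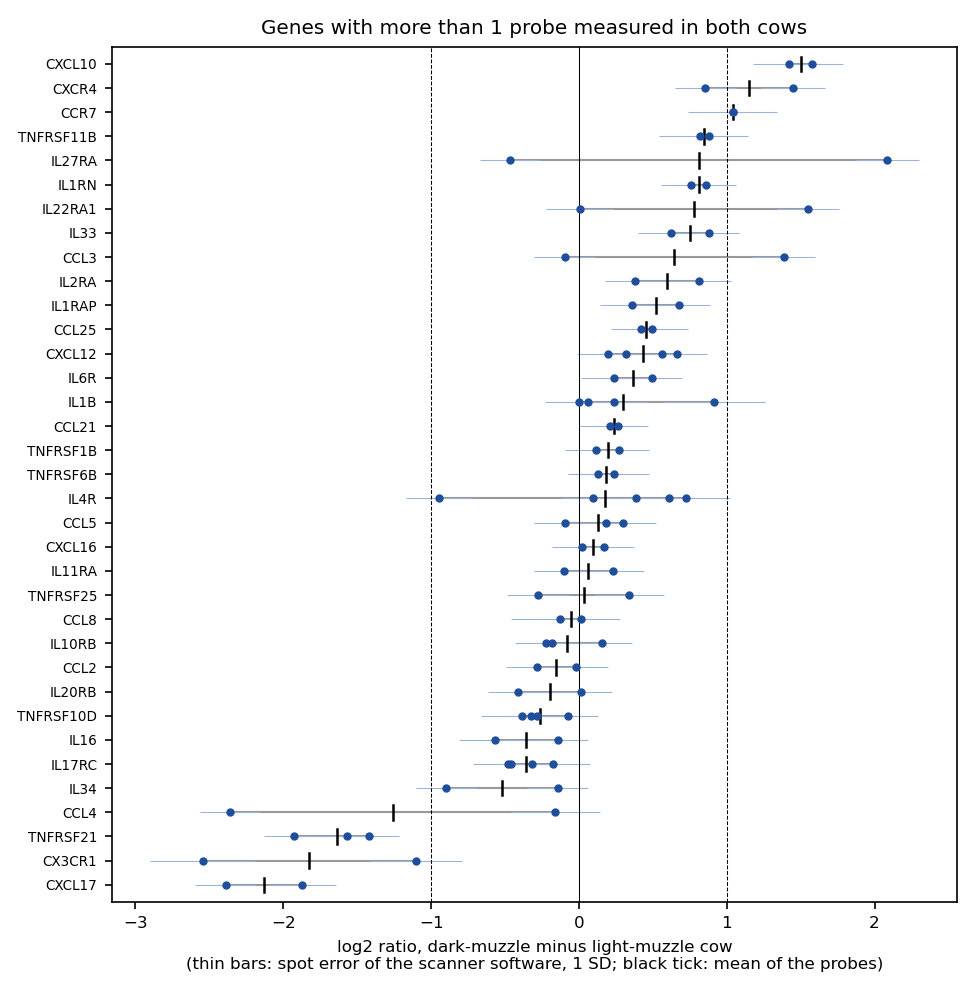
Log2 ratio of each probe, dark-muzzle minus light-muzzle cow, for the 35 member genes with more than 1 probe measured in both cows. Thin bars are spot errors, the black tick is the mean of the probes, and dashed lines mark 2-fold. IL27RA and CCL4 have the widest separation, and all 3 TNFRSF21 probes lie below the 2-fold line.

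Many cytokine genes lie in clusters of related genes. Taking member genes with at most 3 other protein-coding genes between them on the ARS-UCD2.0 assembly, 42 members lay in 17 clusters. Neighbors could be alike or unlike. CXCL9 and CXCL10 were both higher in the dark-muzzle cow (0.89 for CXCL9, and 1.42 and 1.58 for CXCL10). So were the antagonists IL36RN and IL1RN of another cluster (1.36 and 0.81). In the cluster of CXCL8, CXCL5, CXCL2 and CXCL3, by contrast, the ratios were 0.084, -1.41, none and 0.26. CCL4 and CCL3 were at -1.26 and 0.65, although their own probes disagreed. CCL14 was at 1.54 and its neighbor CCL5 at 0.13. TNF and LTA were both close to 0, and IL4, IL13 and IL5 were all above background in neither cow.

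Genes that carry or answer cytokine signals were taken from lists written for the purpose. Of 35 signal transducers, 23 had a matched probe and all 23 were measured, with a median ratio of 0.13. By gene mean only TRAF5, an adaptor of TNF receptors, was past 2-fold, at 1.99. IRAK2 of the interleukin-1 receptor pathway followed (0.78), with 1 probe at least 2-fold higher. Over all genes measured, 9.12% were at least 2-fold higher and 6.10% at least 2-fold lower. The lowest were TAB1 (-0.51) and IKBKB (-0.50), both upstream activators of NF-kB. The JAK kinases were represented by TYK2 alone (-0.29), and STAT genes included STAT3 (0.24), STAT5A (-0.26) and STAT5B (0.63).

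Of 27 feedback inhibitors and targets of cytokine signaling, 21 were measured, with a median of 0.21, 1 at least 2-fold higher and 2 at least 2-fold lower. Over all genes measured, 9.12% were at least 2-fold higher and 6.10% at least 2-fold lower. The counts for the list are by gene mean, and PTGS2 and NOS2 also had single probes at least 2-fold higher. The highest were SOD2, the mitochondrial superoxide dismutase (1.21), and PTGS2, the inducible cyclooxygenase (0.83). The lowest were the acute-phase genes SAA3 (-1.78) and HP (-1.71). SOCS3, the inhibitor induced by STAT3, had a bound of 0.66. Targets of inflammatory signaling were therefore found on both sides.

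Of 33 ligands and receptors of the same families that fall outside the naming rule, 16 were measured, with a median of 0.23. ACKR4, a scavenger receptor that removes CCL19, CCL21 and CCL25, was the furthest above 0, at -2.25 in the light muzzle and 0.17 in the dark muzzle (2.42). XCL1 and ACKR1 followed, at 0.89 each. NGFR, the neurotrophin receptor of the TNF receptor family, was the lowest (-1.92), followed by SIGIRR, an inhibitory receptor of the interleukin-1 family (-0.76), which differed in the other direction from IL1R2, IL36RN and IL1RN. CD27 had a bound of -1.42 in the light-muzzle cow alone.

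**Figure D5:**
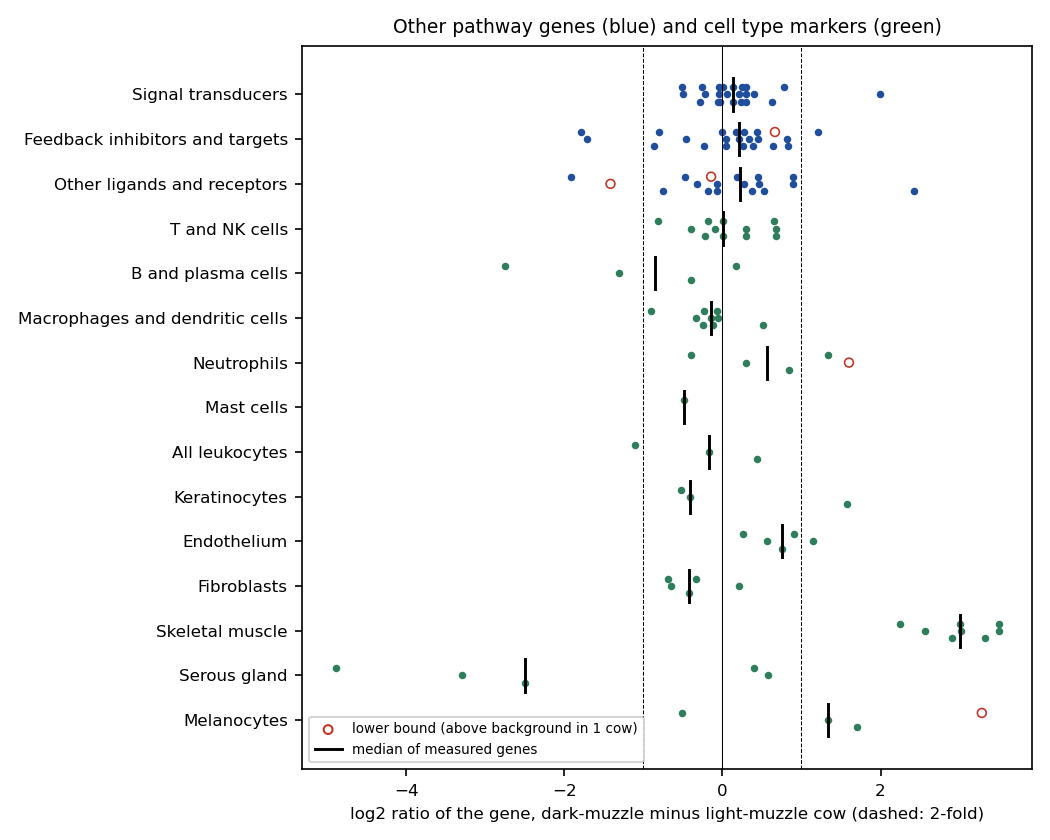
Log2 ratio, dark-muzzle minus light-muzzle cow, of genes in 3 lists of other pathway genes (blue) and 12 lists of cell type markers (green). Open points are lower bounds, black bars medians, and dashed lines 2-fold. All 8 muscle genes lie beyond 2-fold to the right, 3 of the 5 gland genes lie beyond 2-fold to the left and 2 to the right of 0, and T and NK cell genes lie around 0.

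The tissue pieces differed in markers of several cell types besides those above. For all 8 skeletal muscle genes the dark-muzzle level was 2-fold higher or more, with a median ratio of 3.01 and a log2 summed level of 7.35 in the light muzzle and 10.09 in the dark muzzle. The 5 endothelial genes were all above 0 with a median of 0.75, PECAM1 furthest at 1.14. The 5 fibroblast genes had a median of -0.42, with none past 2-fold by gene mean. On single probes, 3 of 5 for COL1A1 and 1 of 9 for DCN were at least 2-fold lower. Among 3 measured melanocyte genes, whose median was 1.34, 2 were higher in the dark muzzle by 2-fold or more. Of the genes of all leukocytes, LCP1 was lower (-1.11), while LAPTM5 (-0.17) and CORO1A (0.44) were within 2-fold. The mast cell gene HDC was at -0.48. The 4 B and plasma cell genes had a log2 summed level of 5.39 and 2.98, set mostly by JCHAIN (5.26 and 2.51). Apart from JCHAIN and MZB1 they were CD79A (-0.39) and MS4A1 (0.17). A second CD79A probe, above background in the dark-muzzle cow alone, was 2-fold higher there or more. The part of these differences in the values of the cytokines, chemokines and receptors was not tested.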

How the data were processed

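The authors deposited the output of Agilent Feature Extraction 10.7.3.1 for 2 one-color bovine arrays, whose processed signal is a background-subtracted intensity. A second deposited table holds log2 values per probe, made by the authors in GeneSpring, whose version is not given in the sources used here. Over 43639 probes, 43605 of its light-muzzle and 43604 of its dark-muzzle values lay within 0.001 of the log2 signal after subtraction of the noncontrol 75th percentile, which was the main scale here. Its column medians were -2.47 and -2.45, and it served as an alternative.

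Control spots and outlier spots (13 on each array) were removed, and repeated spots averaged per probe. A probe well above background on 1 array was given a lower bound, against the higher of its own level and the lowest level above background (-5.78 and -5.81, light-muzzle first), and a probe above it on neither array no ratio. Spot errors combine the relative errors of both spots on the log2 scale. Probes took their symbol from RefSeq (ARS-UCD2.0) by accession, which named 20587 of 43639. The array design was made on an older assembly, so no coordinate is given.

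No test was possible with 1 array per group. Named genes were those with a probe past 2-fold, the 2 brightest of each role group and 11 well-known cytokines and receptors. The values of some genes are not reported here. In other lists the 2 highest and 2 lowest genes were named. The members and lists were chosen with earlier results of these data known. Alternatives were no shift, the 50th percentile, quantile and loess (span 0.3) normalization, normexp (offset 50, on the median pixel signal, in place of the planned mean), no filter, probes above background on both arrays only, outlier spots kept, the deposited table, thresholds of 1.5-fold and 3-fold, genes in place of probes and the brightest probe. The scripts were tested on simulated data. Tools were limma 3.58.1 in R 4.3.3 and Python 3.11.15 with numpy 2.4.6, pandas 2.3.3 and matplotlib 3.10.9.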

Additional observations from a re-analysis of the deposited data

How the results depend on the processing

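No member probe past 2-fold changed sign under any alternative. The count of 17 probes higher in the dark muzzle by 2-fold or more became 9 with normexp, 38 with no filter on dim probes, 38 at 1.5-fold, 4 at 3-fold and 8 when genes were counted. The member shares were then 6.57%, 20.9%, 27.5%, 2.90% and 10.4%, against 5.83%, 13.8%, 19.7%, 4.42% and 9.86% of all probes or genes, so at 3-fold the members fell below the background. The 13 lower ones became 8 at 3-fold (5.80%, against 3.19%) and stayed within 1.5 times elsewhere, and at 1.5-fold their share of 13.8% was below the 15.1% of all probes. Higher probes made up 56.7% of the called ones, 45.0% with normexp, 48.3% with quantile or loess normalization, 48.0% with probes above background on both arrays and 69.1% with no filter. For all probes these shares were 57.7%, 57.7%, 49.7% (quantile), 52.0% (loess), 55.4% and 65.3%. The member median of 0.12 became 0.010 with quantile normalization, 0.036 with loess and 0.18 with no filter. Of 429 values of named genes under an alternative, 393 moved by less than the root mean square spot error of the probes behind them, and 36 moved by more. The 17 genes at least 2-fold by their mean or bound kept their direction in every setting, and 11 of them stayed past 2-fold in every setting. These counts are weak support, because several alternatives could hardly move a measured ratio. They were the deposited table, no shift, the 50th percentile, outlier spots kept and probes above background on both arrays only. Signal over background limits the dim probes. The 10 probes that lost 2-fold with normexp were 8 higher and 2 lower ones, and its offset alone pulls the ratios of dim probes towards 0. No paired analysis was possible because each group had 1 array and the labels give no replicate numbers.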
